A study of Mus musculus with 77 samples.

Results

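The 10 genes described here encode phosphatases that switch off MAP kinases: Dusp1, Dusp4, Dusp5, Dusp6, Dusp7, Dusp8, Dusp10, Dusp16, Dusp3 and Dusp14. They were chosen by symbol, as every probe set annotated with a single symbol among these 10, out of 18194 genes that the arrays represent by single-symbol probe sets. The 10 genes, and the lists of other genes below, were chosen with earlier results of these data known. Their counts beside shares of all genes therefore describe them and do not test them. All 10 genes passed the filter on dim probe sets and were among the 13271 genes tested. Of their 18 probe sets, 17 passed.

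MAP kinases (ERK, JNK and p38) are active when a threonine and a tyrosine in their activation loop are both phosphorylated, and a dual-specificity phosphatase removes both phosphates. Many of these phosphatase genes are themselves transcribed when the kinases are active, so they act as negative feedback. In the striatum, dopamine acting at D1 receptors can activate ERK in direct pathway neurons, most strongly after dopamine has been depleted.

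The study measured messenger RNA on ribosomes of striatal spiny projection neurons by translating ribosome affinity purification (TRAP), in which a ribosomal protein fused to green fluorescent protein (EGFP-L10a) is pulled down together with the messages being translated. Each of 77 Affymetrix mouse arrays came from a single mouse. All mice were males of 9 to 14 weeks on the C57BL/6J background and carried a bacterial artificial chromosome transgene, either Drd1::EGFP-L10a (line CP73, direct pathway neurons, dSPN) or Drd2::EGFP-L10a (line CP101, indirect pathway neurons, iSPN). Each cell type was thus read from 1 transgenic line. The Drd2 gene is also active in striatal cholinergic interneurons.

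Dopamine neurons were killed on 1 side with 6-hydroxydopamine (6-OHDA, 3.2 µg/µl) injected into the right medial forebrain bundle. Straight after the final behavioural session the dorsal striatum on the lesioned side was dissected. Lesioned mice were kept only if turning and limb use at 2 weeks showed a successful lesion, and drug treatment began at 3 weeks. Mock-lesioned mice received vehicle in place of the toxin and then saline injections, and gave 10 dSPN and 10 iSPN arrays. Lesioned mice with saline gave 11 and 7. Lesioned mice with the low levodopa regimen (1 mg/kg on days 1 to 3, then 2 mg/kg on days 4 to 9) gave 12 and 8. Lesioned mice with the high regimen (3 mg/kg, then 6 mg/kg) gave 11 and 8. Levodopa, the precursor of dopamine, was given daily with benserazide (12 mg/kg), which blocks its conversion outside the brain. All mice were handled alike and received saline when not given levodopa.

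The promoters of 4 genes are shown because they span what the genes' start regions hold: Dusp1 and Dusp8 have the full cyclic AMP response element (CRE), Dusp5 has a pair of CArG boxes, the sites of serum response factor, and Dusp14, among the genes that changed most, has none of the motifs searched. Each is 300 bases long, 250 before the annotated start and 50 from it, written 5′ to 3′ on the gene's strand (RefSeq, build GRCm38.p6). The regions are chr17:26508423-26508722 (minus strand) for Dusp1, chr19:53528895-53529194 (plus strand) for Dusp5, chr7:142095235-142095534 (minus strand) for Dusp8 and chr11:84068308-84068607 (minus strand) for Dusp14. Capitals mark matches to the motifs.

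Dusp1: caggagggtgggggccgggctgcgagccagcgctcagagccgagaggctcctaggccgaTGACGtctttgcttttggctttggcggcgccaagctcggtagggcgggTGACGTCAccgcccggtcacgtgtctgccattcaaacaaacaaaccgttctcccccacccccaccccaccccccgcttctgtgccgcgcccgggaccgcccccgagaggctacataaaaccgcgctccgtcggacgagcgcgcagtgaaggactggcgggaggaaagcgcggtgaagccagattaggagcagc

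Dusp5: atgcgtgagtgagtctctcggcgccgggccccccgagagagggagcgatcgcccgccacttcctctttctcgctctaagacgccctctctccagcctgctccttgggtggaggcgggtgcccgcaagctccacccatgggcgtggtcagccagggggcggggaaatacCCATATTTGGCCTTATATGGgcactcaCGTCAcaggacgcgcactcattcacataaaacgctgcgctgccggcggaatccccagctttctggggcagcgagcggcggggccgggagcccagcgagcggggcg

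Dusp8: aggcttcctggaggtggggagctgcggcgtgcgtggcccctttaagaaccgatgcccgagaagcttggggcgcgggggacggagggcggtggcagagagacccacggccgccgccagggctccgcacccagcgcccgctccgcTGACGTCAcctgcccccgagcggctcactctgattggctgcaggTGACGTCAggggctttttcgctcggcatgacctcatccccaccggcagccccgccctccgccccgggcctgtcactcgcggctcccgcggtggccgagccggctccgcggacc

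Dusp14: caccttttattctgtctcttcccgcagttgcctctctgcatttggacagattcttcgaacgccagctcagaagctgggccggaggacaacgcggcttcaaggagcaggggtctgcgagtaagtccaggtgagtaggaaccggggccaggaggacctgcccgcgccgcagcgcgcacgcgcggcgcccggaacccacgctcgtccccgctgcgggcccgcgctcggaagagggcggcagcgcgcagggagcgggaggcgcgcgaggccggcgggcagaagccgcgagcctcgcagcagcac

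The motifs searched on both strands were the CRE (TGACGTCA), its half-site (TGACG), the AP-1 site (TGANTCA) and the CArG box. A full CRE contains the half-site on each strand, so these matches overlap. Promoters were found for 9 of the 10 genes, and that of Dusp4 was not available to search. The CRE was in 1.79% of 32851 promoters of the same length, and 0.0396% held at least 2. Dusp8 held 2, starting 107 and 63 bases before the gene's start, and Dusp1 held 1, at 143 bases, with a separate half-site at 191. The CArG box was in 1.63% of promoters, and 0.0183% held at least 2; in Dusp5 a pair lay end to end at 82 and 72 bases. The half-site was in 20.8% of promoters, among them those of Dusp5 at 55 bases and Dusp16 at 70. The AP-1 site was in 7.81% of promoters and in none of the 9. No match to any of the 4 was found in the windows of Dusp3, Dusp6, Dusp7, Dusp10 and Dusp14. A match describes these letters only.

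The arrays' medians lay between 4.31 and 4.42 on the log2 scale, and an array's median correlation with others of its group was 0.9644 to 0.9867. After mock lesion, all 8 tested dSPN markers were higher in the dSPN line and all 5 tested iSPN markers were lower, Drd2 by 4.87, so the labels match the markers. Glial markers were present in every group. The summed level of 10 oligodendrocyte markers was 11.61 to 12.78 in lesioned dSPN arrays with saline, 10.49 to 11.67 with the low dose and 10.57 to 11.48 with the high dose, and 8 of the 10 fell with each dose. Of 10 astrocyte markers, 6 fell with the high dose and 4 with the low dose. Of all genes in dSPN, 25.5% fell with the high dose and 19.0% with the low dose, while 20.1% and 15.1% rose. Of 9 tested markers shared by both kinds of spiny neuron, 7 fell and 2 rose with each dose in dSPN, and their summed level was 14.77 to 14.87 with saline, 14.56 to 14.77 with the low dose and 14.56 to 14.68 with the high dose. The summed level of 8 microglial markers was 8.35 to 9.43 with saline, 9.78 to 10.58 with the low dose and 9.58 to 10.60 with the high dose. Of the 7 microglial markers tested, Cd68 alone was called, with a rise of 1.69 with the high dose and 1.70 with the low dose. In iSPN, 4 cholinergic interneuron markers had a median summed level of 7.04 after mock lesion. It was 7.71 after lesion with saline, 7.89 with the low dose and 7.91 with the high dose. The oligodendrocyte medians in iSPN were 12.81, 12.34, 12.40 and 12.23 in the same order, and for both lists the groups overlapped. The part of these shifts in the results below was not tested. In bulk samples, fewer cells of a type and less RNA per cell cannot be told apart. The arrays also fall into 7 runs by the numbers in their titles, each within 1 line, so the difference between lines and the difference between runs cannot be told apart. One array stood apart for several of the genes: replicate 3 of the low dose in iSPN, whose values are given beside the results they touch.

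**Figure D1:**
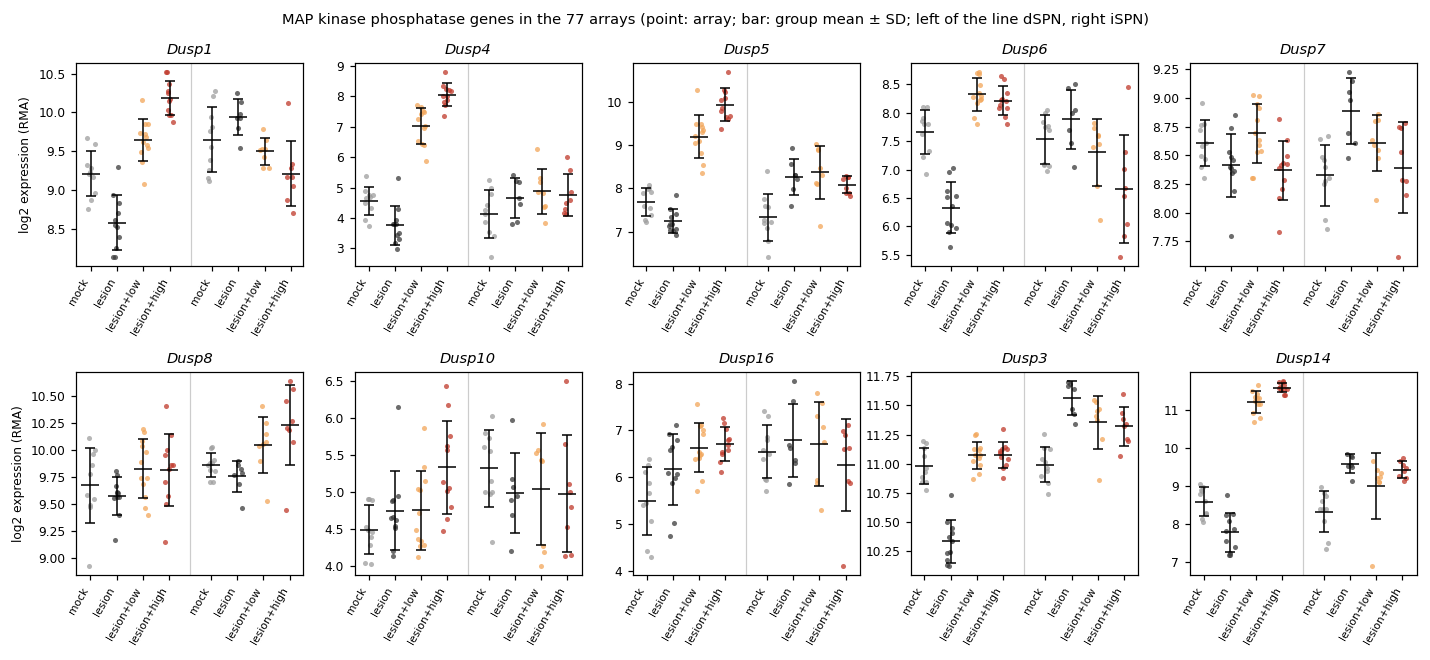
Log2 expression of each of the 10 genes on every array (points), with the group mean and SD (bars), dSPN left of the vertical line and iSPN right, in the order mock, lesion with saline, lesion with low dose and lesion with high dose. Within dSPN, the levodopa arrays of Dusp4, Dusp5 and Dusp14 lie above all mock and lesioned saline arrays, with Dusp14 at 10.68 or more, and the lesioned dSPN arrays are the lowest group for Dusp1, Dusp3, Dusp4, Dusp5, Dusp6 and Dusp14.

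In dSPN, several of the phosphatases fell after dopamine depletion and rose with levodopa. After the lesion 4 of the 10 fell (Dusp6, Dusp14, Dusp3 and Dusp1) and none rose, at an adjusted p under 0.05 from limma, where 1.84% of all tested genes fell and 0.640% rose. With the high dose 7 rose against lesioned mice given saline (Dusp4, Dusp14, Dusp5, Dusp6, Dusp1, Dusp3 and Dusp10) and none fell, where 20.1% of all genes rose and 25.5% fell. All of these but Dusp10 lay wholly above the lesioned saline arrays, 6 genes of the 10 where 6.34% of all genes did so. With the low dose 6 rose (the same genes without Dusp10) and none fell, where 15.1% rose and 19.0% fell, and 5 of the 10 did not overlap with the lesioned saline arrays, where 3.13% of all genes did not in that direction. The median change of the 10 genes was -0.54 with the lesion, 1.17 with the high dose and 0.90 with the low dose, beside -0.0022, -0.04 and -0.04 over all genes. The lesion and the levodopa comparisons share the lesioned saline arrays.

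In iSPN the called genes went up after the same lesion. There 4 rose (Dusp14, Dusp5, Dusp3 and Dusp7) and none fell, where 3.19% of all genes rose and 3.01% fell. With the high dose Dusp6, Dusp1 and Dusp7 fell and Dusp8 rose, where 3.59% of all genes fell and 6.27% rose. With the low dose none of the 10 was called by limma, where 2.41% of all genes rose and 1.77% fell. At an unadjusted p under 0.05, 1 was higher and 4 were lower. The share of all genes at that threshold was not counted, so unadjusted counts here and below have no background beside them. The median change of the 10 was 0.44 with the lesion, -0.21 with the high dose and -0.14 with the low dose.

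**Figure D2:**
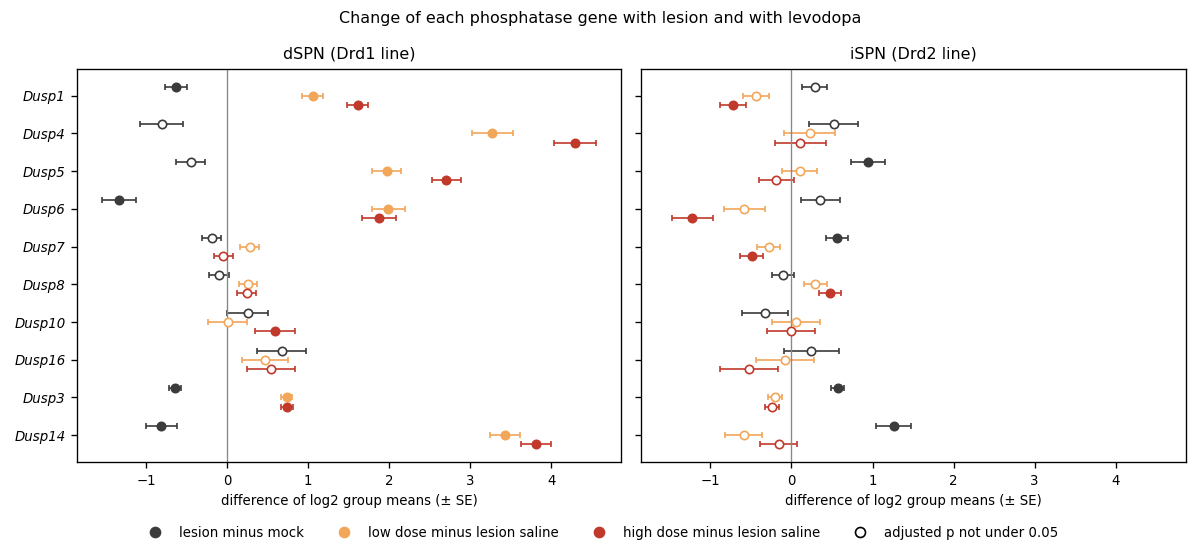
Difference of log2 group means with its standard error for the 10 genes in dSPN (left) and iSPN (right), for lesion minus mock, low dose minus lesioned saline and high dose minus lesioned saline, with open symbols where the adjusted p is not under 0.05. In dSPN the lesion differences of the called genes lie below 0 and the levodopa differences above it, up to 4.30 for Dusp4, while in iSPN Dusp14 lies at 1.26 after the lesion and Dusp6 at -1.22 with the high dose.

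The first role group holds the inducible phosphatases of the nucleus, Dusp1 (MKP-1), Dusp4 (MKP-2) and Dusp5. Dusp1 acts on all 3 kinds of MAP kinase and is a classic immediate early gene. In dSPN its lowest, median and highest log2 values were 8.76, 9.22 and 9.68 after mock lesion, 8.14, 8.55 and 9.30 after lesion, 9.07, 9.65 and 10.16 with the low dose, and 9.88, 10.17 and 10.52 with the high dose. In iSPN they were 9.12, 9.66 and 10.28, then 9.54, 9.93 and 10.26, then 9.28, 9.52 and 9.78, and 8.70, 9.17 and 10.12. Every dSPN array with the high dose was above every mock and every lesioned saline array, while the low-dose arrays overlapped both, and the iSPN groups overlapped throughout.

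Dusp1 fell by 0.63 (SE 0.14) in dSPN after lesion (limma adjusted p = 0.00204; p = 0.109 with run as a block, difference -0.61). It rose by 1.61 (SE 0.13) with the high dose (adjusted p = 2.6e-17) and by 1.06 (SE 0.13) with the low dose (adjusted p = 3.06e-10). It was also higher than after mock lesion with the high dose, by 0.98, and with the low dose, by 0.43 (adjusted p = 0.0087; 0.0777 with run as a block). In iSPN Dusp1 went down with the high dose, by 0.72 (SE 0.16, adjusted p = 0.00118; 0.164 with run as a block). The high-dose differences of Dusp1 had opposite signs in the lines, though the iSPN fall was not called with run as a block. The difference between the lines' high-dose changes was 2.33 (SE 0.21, adjusted p = 5.63e-15), where 10.5% of all genes were called more positive in dSPN.

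Dusp4, a nuclear phosphatase of ERK and JNK, had the largest change of the 10 with the high dose in dSPN. Its dSPN values were 3.75, 4.67 and 5.37 after mock lesion, 2.99, 3.79 and 5.30 after lesion, 5.89, 7.15 and 7.71 with the low dose, and 7.36, 8.03 and 8.80 with the high dose. No array with either dose overlapped the mock or the lesioned saline arrays, and the doses overlapped each other. In iSPN the values ran from 2.72 to 6.28 over all 4 groups, with medians of 4.19, 4.65, 4.84 and 4.54, and no group stood apart. Outside the dSPN levodopa groups Dusp4 was thus dim, with medians of 3.79 to 4.84 beside a filter at 3.55. Its folds are therefore rough, and a fall after lesion or a lack of change in iSPN is hard to read.

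Dusp4 rose by 4.30 (SE 0.26, a 19.7-fold difference) with the high dose in dSPN and by 3.27 (SE 0.25, 9.68-fold) with the low dose (adjusted p = 6.67e-24 and 4.87e-18). The lesion difference of -0.81 (SE 0.27) in dSPN did not pass (adjusted p = 0.0944); without lesioned saline replicate 6, the highest of its group, it was -0.96 (adjusted p = 0.0206), and with each line fitted alone it was -0.81 (adjusted p = 0.0281). In iSPN the differences were 0.52 with the lesion, 0.11 with the high dose and 0.22 with the low dose, none called. The high-dose change differed between lines by 4.19 (SE 0.41, adjusted p = 1.93e-13).

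Dusp5, a nuclear phosphatase of ERK and the gene with paired CArG boxes above, had dSPN values of 7.22, 7.74 and 8.08 after mock lesion, 6.91, 7.17 and 7.85 after lesion, 8.36, 9.27 and 10.28 with the low dose, and 9.38, 9.87 and 10.70 with the high dose. Again all levodopa arrays of dSPN were above all mock and lesioned saline arrays. In iSPN the values were 6.41, 7.24 and 8.40, then 7.60, 8.30 and 8.93, then 7.14, 8.39 and 9.03, and 7.83, 8.11 and 8.29. The medians of all 3 lesioned groups were above the mock median, every high-dose array lay within the mock range, and the other lesioned groups overlapped it.

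Dusp5 rose by 2.71 (SE 0.18, 6.52-fold) with the high dose and by 1.97 (SE 0.18) with the low dose in dSPN (adjusted p = 9.75e-22 and 2.63e-15). The lesion difference in dSPN was -0.45 (adjusted p = 0.229). In iSPN it rose by 0.94 (SE 0.21) after lesion (adjusted p = 0.00143; 0.0828 with run as a block, difference 1.17). It was still higher than after mock lesion with the high dose, by 0.76 (adjusted p = 0.00395; 0.204 with run as a block). With the low dose it was higher by 1.04 (adjusted p = 0.000111; 0.115 with run as a block).

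The second group is cytoplasmic and acts on ERK: Dusp6 (MKP-3) and Dusp7 (MKP-X). Dusp6 is a standard readout of ERK activity and had the largest fall of the 10 in dSPN after lesion. Its dSPN values were 6.92, 7.80 and 8.09 after mock lesion, 5.65, 6.36 and 7.03 after lesion, 7.80, 8.28 and 8.71 with the low dose, and 7.81, 8.20 and 8.65 with the high dose. Both levodopa groups lay wholly above the lesioned saline arrays and overlapped the mock arrays. In iSPN they were 6.97, 7.72 and 8.04, then 7.05, 7.99 and 8.50, then 6.12, 7.51 and 7.81, and 5.47, 6.61 and 8.44, with an SD of 0.94 in the last group against 0.25 in dSPN with the same dose.

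Dusp6 fell by 1.33 (SE 0.21) after lesion in dSPN (adjusted p = 1.17e-05; 0.0124 with run as a block) and rose by 1.88 (SE 0.21, 3.67-fold) with the high dose and 1.99 (SE 0.20, 3.97-fold) with the low dose. The levodopa level was above the mock level by 0.54 (high, adjusted p = 0.0327) and 0.65 (low, adjusted p = 0.0115). The high-dose excess was lost on leaving out any of 5 arrays in turn (mock replicates 4, 6 and 10, high-dose replicates 3 and 7), at 0.46 to 0.50 with adjusted p of 0.0557 to 0.0801. In iSPN Dusp6 fell by 1.22 (SE 0.25) with the high dose (adjusted p = 0.000471; 0.014 with run as a block), while its low-dose difference was -0.58 (adjusted p = 0.194). The difference between lines was -1.69 (SE 0.32) for the lesion and 3.10 (SE 0.33) for the high dose (adjusted p = 0.000145 and 3.62e-12), where 3.21% of all genes were called more negative in dSPN for the lesion.

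Dusp7 moved little in dSPN, where all its values lay between 7.80 and 9.02, with medians of 8.59 (mock), 8.40 (lesion), 8.67 (low dose) and 8.41 (high dose). The differences were -0.19 with the lesion, 0.28 with the low dose (adjusted p = 0.0508) and -0.05 with the high dose. In iSPN its values were 7.86, 8.35 and 8.66 after mock lesion, 8.48, 8.98 and 9.22 after lesion, 8.11, 8.61 and 8.86 with the low dose, and 7.61, 8.41 and 8.78 with the high dose. The lesioned iSPN arrays with saline were thus the highest, overlapping every other group.

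Dusp7 rose by 0.56 (SE 0.13) in iSPN after lesion (adjusted p = 0.00441; 0.544 with run as a block) and fell by 0.49 (SE 0.14) with the high dose (adjusted p = 0.0152; 0.445 with run as a block, and 0.0953 with the probe sets of the gene averaged). Without high-dose replicate 6 of iSPN the fall was -0.38 (adjusted p = 0.0644). The low-dose difference between lines was 0.56 (adjusted p = 0.0266, where 6.99% of all genes were called more positive in dSPN; 0.077 with run as a block). It was 0.49 (adjusted p = 0.0604) without iSPN low-dose replicate 1 and 0.50 (adjusted p = 0.0607) without iSPN lesioned saline replicate 7. With the most variable probe set it was 0.27 (adjusted p = 0.622), and with the probe sets averaged 0.51 (adjusted p = 0.101).

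The third group, Dusp8, Dusp10 (MKP-5) and Dusp16 (MKP-7), acts mainly on JNK and p38. Dusp8, with 2 CREs in its promoter window, had dSPN values from 8.92 to 10.41 and overlapping groups, with differences of -0.10 (lesion), 0.25 (low dose, adjusted p = 0.0728) and 0.24 (high dose, adjusted p = 0.0798), none called. In iSPN the values were 9.70, 9.87 and 10.03 after mock lesion, 9.46, 9.78 and 9.90 after lesion, 9.53, 10.07 and 10.41 with the low dose, and 9.45, 10.24 and 10.64 with the high dose. In the high-dose group 7 of 8 iSPN arrays were above every lesioned saline array, and the remaining one was the lowest of the iSPN arrays. Dusp8 rose by 0.48 (SE 0.14, adjusted p = 0.018; 0.379 with run as a block) there. Without high-dose replicate 2 the difference was 0.42 (adjusted p = 0.0538), and with the probe sets averaged it was 0.27 (adjusted p = 0.0588).

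Dusp10 was dim, with dSPN medians of 4.48, 4.65, 4.61 and 5.15 and iSPN medians of 5.36, 4.94, 5.43 and 4.90 in the same order of groups, and all groups overlapped. It rose by 0.59 (SE 0.24) with the high dose in dSPN (adjusted p = 0.0423; 0.0888 with run as a block). Leaving out any of 12 arrays in turn ended that call, at 0.48 to 0.58. Those were lesioned saline replicates 4 to 10 and high-dose replicates 1, 3, 5, 7 and 10. A second probe set of the gene rose by 0.84 in the same comparison.

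Dusp16 varied more between arrays than most members, from 4.29 to 7.56 in dSPN and from 4.10 to 8.05 in iSPN. Its dSPN medians went from 5.56 (mock) through 6.09 (lesion) and 6.51 (low dose) to 6.68 (high dose), with overlap between neighbouring groups. Neither the lesion difference of 0.67 (adjusted p = 0.305) nor the levodopa differences of 0.54 and 0.47 passed, whereas high and low dose were above mock by 1.22 (SE 0.30, adjusted p = 0.000616) and 1.14 (SE 0.30, adjusted p = 0.00166). Within groups Dusp16 moved with the oligodendrocyte markers (r = 0.45 over 77 arrays that share processing), as did Dusp10 (r = 0.43). With the mean of those markers as a covariate, the difference of Dusp16 from lesioned saline in dSPN was 1.44 for the high dose (adjusted p = 0.000438) and 1.25 for the low dose.

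The last group holds the small phosphatases without a kinase-binding domain, Dusp3 (VHR) and Dusp14 (MKP6). Dusp3 had narrow groups. Its dSPN values were 10.78, 10.95 and 11.20 after mock lesion, 10.12, 10.33 and 10.73 after lesion, 10.87, 11.07 and 11.25 with the low dose, and 10.88, 11.09 and 11.29 with the high dose. In iSPN they were 10.74, 10.99 and 11.25, then 11.34, 11.64 and 11.70, then 10.86, 11.43 and 11.55, and 11.07, 11.33 and 11.60. The lesion separated the arrays completely in both lines, downward in dSPN and upward in iSPN, which 0.105% and 0.407% of all genes did.

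Dusp3 fell by 0.65 (SE 0.07) in dSPN after lesion and rose by 0.57 (SE 0.08) in iSPN (adjusted p = 5.76e-10 and 3.03e-07; 1.99e-05 and 0.0164 with run as a block). The difference between the lines was -1.21 (SE 0.11, adjusted p = 4.7e-14). With either dose it rose by 0.74 (SE 0.07) in dSPN and lay 0.09 from the mock level, a difference that did not pass (adjusted p = 0.301 and 0.353). With the probe sets of the gene averaged, however, it was above mock by 0.41 and 0.42 (adjusted p = 0.000569 and 0.000585). In iSPN it was above the mock level with the high dose, by 0.33 (adjusted p = 0.00119; 0.495 with run as a block), and with the low dose, by 0.36 (adjusted p = 0.000576; 0.338 with run as a block). Its iSPN differences from lesioned saline were -0.24 with the high dose (adjusted p = 0.0544) and -0.21 with the low dose (adjusted p = 0.166). Some alternatives called the high-dose fall, among them quantile normalization (-0.26, adjusted p = 0.0326).

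Dusp14 had the largest levodopa change in dSPN after Dusp4 with the high dose, and the largest with the low dose. Its dSPN values were 8.04, 8.69 and 9.05 after mock lesion, 7.17, 7.80 and 8.75 after lesion, 10.68, 11.27 and 11.64 with the low dose, and 11.39, 11.57 and 11.75 with the high dose. The high-dose arrays lay close together, and both doses lay clear of the other dSPN groups. In iSPN the values were 7.34, 8.39 and 8.97, then 9.12, 9.55 and 9.84, then 6.89, 9.22 and 9.64, and 9.11, 9.42 and 9.73. All lesioned iSPN arrays but 1 were above every mock array, and that array was replicate 3 of the low dose.

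Dusp14 fell by 0.81 (SE 0.19) in dSPN after lesion (adjusted p = 0.00624; 0.167 with run as a block, difference -0.80). It rose by 3.81 (SE 0.19, 14.1-fold) with the high dose and by 3.43 (SE 0.18, 10.8-fold) with the low dose (adjusted p = 7.07e-29 and 1.76e-26). In iSPN it rose by 1.26 (SE 0.22, 2.40-fold) after lesion (adjusted p = 2.22e-05; 0.0254 with run as a block) and stayed above mock with the high dose, by 1.10 (adjusted p = 4.63e-05). In iSPN with the high dose the difference from lesioned saline was -0.16 (adjusted p = 0.746). The difference between lines was -2.07 (SE 0.29) for the lesion, 3.97 (SE 0.29) for the high dose and 4.02 (SE 0.29) for the low dose (adjusted p = 2.24e-07, 2.02e-18 and 1.36e-18).

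Low-dose replicate 3 of iSPN bears on several of these values. It read 6.89 for Dusp14 against 9.11 for the next lowest array of its group, 7.14 against 8.11 for Dusp5, 10.86 against 11.21 for Dusp3 and 9.53 against 9.90 for Dusp8, while it was the highest of the 8 for Dusp6 (7.81). Its values of Dusp5 and Dusp3 lay within the iSPN mock range (6.41 to 8.40 and 10.74 to 11.25), and its Dusp14 and Dusp8 values lay below the lowest mock arrays (7.34 and 9.70). The low-dose iSPN means include it. Without it Dusp14 was above mock by 0.97 (adjusted p = 2.33e-05) rather than 0.67 (SE 0.21, adjusted p = 0.0231; 0.449 with run as a block), and the differences of Dusp5 and Dusp3 from mock were 1.22 and 0.43. Leaving out any of 5 other arrays (low-dose replicates 1, 5 and 7, mock replicates 8 and 9) ended the Dusp14 call, at 0.57 to 0.63. Against lesioned saline none of the 10 was called with or without it.

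The high and low doses were also compared directly. In dSPN 3 of the 10 were higher with the high dose, all from the inducible nuclear group, where 3.14% of all genes were higher: Dusp4 by 1.02 (SE 0.25, adjusted p = 0.00583), Dusp5 by 0.74 (SE 0.18, adjusted p = 0.0039) and Dusp1 by 0.55 (SE 0.13, adjusted p = 0.00338). With run as a block the differences were 1.11, 0.81 and 0.52 and none passed (adjusted p = 0.15, 0.136 and 0.241). Only 2 high-dose arrays shared a run with low-dose arrays. Dusp6 (-0.11), Dusp14 (0.38) and Dusp7 (-0.32, adjusted p = 0.0723) did not pass. In iSPN none of the 10 was called by limma (1 at an unadjusted p under 0.05, Dusp6 at -0.64), where 0.173% of all genes were.

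Set beside mock lesion, the dSPN levels with levodopa were higher for 7 of the 10 with the high dose and 6 with the low dose, where 18.4% and 12.5% of all genes were higher. Wholly above the mock arrays lay 4 of the 10 with the high dose and 3 with the low dose, where 5.70% and 2.78% of all genes did. Dusp4 was up 3.49 and 2.47, Dusp14 3.00 and 2.62, and Dusp5 2.25 and 1.52, with no overlap with the mock arrays for any of these. Dusp10 was up 0.84 with the high dose (SE 0.25, adjusted p = 0.00446). In iSPN 4 were higher (Dusp14, Dusp5, Dusp8 and Dusp3) and Dusp6 and Dusp1 lower with the high dose, and 3 were higher with the low dose. Of all genes, 10.4% were higher and 8.27% lower with the high dose, and 5.89% were higher with the low dose. Dusp14 with the high dose (1.10) did not overlap the mock arrays, where 1.10% of all genes lay above them. With run as a block 1 of these 6 and 0 of these 3 were called by limma. The high-dose call of Dusp1 was lost without any of mock replicates 1, 2 and 3 and high-dose replicates 2, 4 and 7 (-0.41 to -0.36). That of Dusp8 was lost without any of mock replicate 8 and high-dose replicates 2, 3 and 4 (0.31 to 0.35).

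Between the lines, 3 of the 10 were lower in dSPN after mock lesion (Dusp16 by -1.05, Dusp10 by -0.83 and Dusp1 by -0.44), where 10.9% of all genes were lower. Of the 10 oligodendrocyte markers, 7 were lower in dSPN in the same comparison, and with their mean as a covariate none of the 3 passed (-0.38, -0.29 and -0.25; adjusted p = 0.505, 0.559 and 0.321). The same covariate took the calls over all 13271 genes from 2988 to 1760. The marker mean itself was 7.38 in dSPN and 8.18 in iSPN after mock lesion, so covariate and line overlap. The cause of the line differences was not tested. After lesion with saline 7 were lower in dSPN, where 11.4% of all genes were. Of these Dusp14 (-1.81), Dusp6 (-1.55), Dusp1 (-1.36) and Dusp3 (-1.22) did not overlap between the lines, which 2.00% of all genes did in that direction. Dusp4 was lower by -0.90 (adjusted p = 0.0193), and without iSPN lesioned saline replicate 2, 3 or 5 it was not called (-0.81 to -0.77).

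With levodopa the order turned. With the high dose 5 were higher in dSPN (Dusp4 by 3.29, Dusp14 by 2.16, Dusp5 by 1.86, Dusp6 by 1.54 and Dusp1 by 0.98) and Dusp8 and Dusp3 lower, where 18.4% of all genes were higher and 24.6% lower. Dusp4, Dusp5 and Dusp14 did not overlap between the lines, 3 of the 10 where 5.18% of all genes lay above. With the low dose 4 were higher (Dusp14 by 2.21, Dusp4 by 2.15, Dusp6 by 1.02 and Dusp5 by 0.83) and Dusp3 lower, where 16.5% of all genes were higher and 20.2% lower. Dusp14 alone of the 10 did not overlap there, where 2.61% of all genes lay above. The lower level of Dusp3, -0.25 and -0.28, turned sign with its probe sets averaged (0.10 and 0.16). That of Dusp8 with the high dose, -0.42, turned sign with its most variable probe set (0.43).

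**Figure D3:**
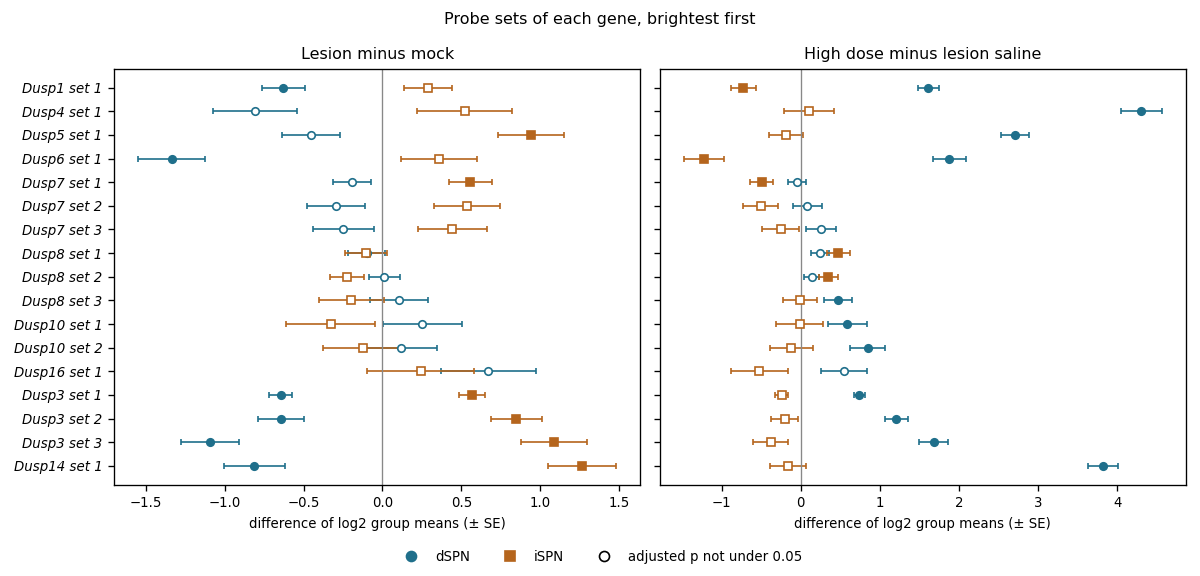
Difference of log2 means with its standard error for each tested probe set, brightest first within a gene, for lesion minus mock (left) and high dose minus lesioned saline (right), dSPN as circles and iSPN as squares, open where the adjusted p is not under 0.05. The 3 probe sets of Dusp3 fell in dSPN and rose in iSPN after lesion, whereas those of Dusp8 in iSPN with the high dose were at 0.48, 0.35 and -0.0092.

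Dusp1, Dusp4, Dusp5, Dusp6 and Dusp14 were read by a single probe set, and Dusp16 by 1 of 2. The 3 probe sets of Dusp3 were at -0.65, -0.64 and -1.09 in dSPN after lesion, at 0.57, 0.85 and 1.09 in iSPN after lesion and at 0.74, 1.21 and 1.68 in dSPN with the high dose, all of them called when all 23974 probe sets were tested. In those fits 1.99%, 5.39% and 44.9% of all probe sets were called. For Dusp7 in iSPN the brightest probe set, of a kind that can also bind other transcripts (suffix x), was called after lesion and with the high dose, and the other 2 were not (0.53 and 0.44 after lesion, -0.51 and -0.25 with the high dose, where 8.71% of all probe sets were called). For Dusp8 in iSPN with the high dose 2 probe sets rose, by 0.48 and 0.35, and the dimmest was at -0.0092.

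**Figure D4:**
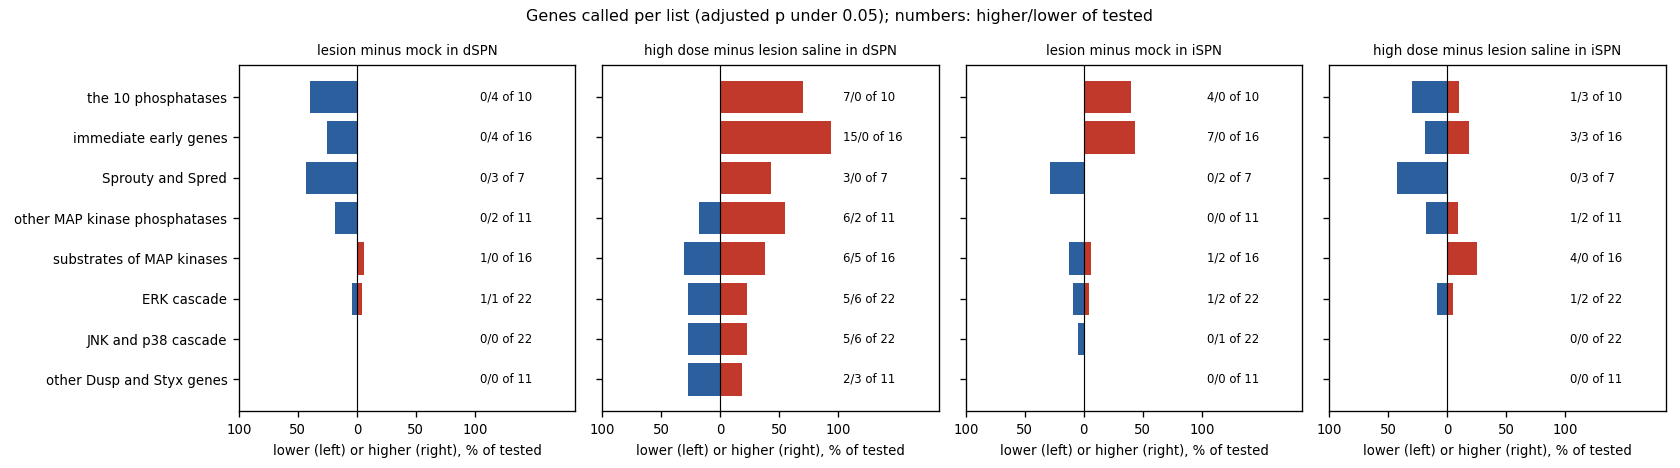
Share of the tested genes of each list called higher (right, red) or lower (left, blue) in 4 comparisons, with the counts as higher/lower of tested. Immediate early genes rose in 15 of 16 cases with the high dose in dSPN, beside 7 of the 10 phosphatases, whereas the ERK cascade was split at 5 and 6 of 22.

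Other genes of the pathway were counted by list, and these lists too were chosen with earlier results known. Their counts describe the lists and test nothing. Of 11 tested dual-specificity phosphatases outside the 10, none was called by limma after lesion in either line (at an unadjusted p under 0.05, 1 higher and 1 lower in dSPN and 1 higher in iSPN). In dSPN with the high dose Dusp11, which acts on RNA, rose by 1.45 and Dusp19 by 0.45, while Dusp18 fell by 1.80, Dusp28 by 1.64 and Styx, which lacks catalytic activity, by 0.54. These 2 rises and 3 falls of 11 are near the shares of all genes, 20.1% and 25.5%. The median change of the list there was 0.03, beside -0.04 over all genes.

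Of 11 tested phosphatases of other families that act on MAP kinases, 2 fell in dSPN after lesion: Ptpn5 (STEP, a striatum-enriched tyrosine phosphatase of ERK), by 0.31, and Ppp2r2a, a subunit of protein phosphatase 2A, by 0.33, where 1.84% of all genes fell. With the high dose in dSPN 6 rose and 2 fell, where 20.1% and 25.5% of all genes did, among them Ppm1d (1.84), Ppp2ca (0.73) and Ptpn5 (0.61) upward and Ptprr (-1.58) downward. Ptpn5 thus fell after lesion and rose with the high dose in dSPN as Dusp6 did, with smaller differences. In iSPN with the high dose it fell by 0.28 (adjusted p = 0.0181).

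The kinases and their adaptors were called about as often as all genes. Of 22 tested genes of the ERK cascade, 5 rose and 6 fell with the high dose in dSPN (median -0.15), near the 20.1% and 25.5% of all genes, with Grb2, an adaptor that links receptors to Ras activation, up 0.82 and Nf1, a Ras inhibitor, down 0.92. After lesion in dSPN 1 rose and 1 fell: Pea15a, which holds ERK in the cytoplasm, by 1.04, and Shc3, an adaptor, by -0.55. In iSPN Pea15a fell by 0.70 after lesion. Of 22 tested genes of the JNK and p38 cascades, the same numbers, 5 and 6, rose and fell with the high dose in dSPN, led by Map2k3, a kinase that activates p38, at 1.95. After lesion in dSPN none of them was called by limma (1 higher at an unadjusted p under 0.05).

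Downstream of the kinases, the counts are read against the same shares of all genes, 20.1% rising and 25.5% falling with the high dose in dSPN. Of 16 kinases and nuclear factors that MAP kinases phosphorylate, 6 rose and 5 fell with the high dose in dSPN, with Mapkapk3 up 4.51, Jun up 3.29, Mknk2 up 2.11, Rps6ka5 (MSK1) down 1.08 and Elk1 down 0.88. In iSPN 4 rose and none fell, where 6.27% and 3.59% of all genes did, led by the same Mapkapk3 (2.39), Mknk2 (1.30) and Jun (1.03). Of 16 immediate early genes, 15 rose with the high dose and 14 with the low dose in dSPN (medians 2.46 and 1.92), where 20.1% and 15.1% of all genes rose, with Nr4a2 up 5.98 and Nr4a3 up 5.89. After lesion 4 fell in dSPN, Egr2 by 1.74, and 7 rose in iSPN, Nr4a1 by 2.83 and Fos by 2.43, where 1.84% of all genes fell in dSPN and 3.19% rose in iSPN.

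Sprouty and Spred proteins restrain ERK signalling upstream of the kinases and serve as a second kind of feedback. Of 7 tested, 3 fell in dSPN after lesion (Spred3 by 1.23, Spry2 by 0.94 and Spred2 by 0.69), where 1.84% of all genes fell. With the high dose 3 rose in dSPN (Spry4 by 2.55, Spry2 by 1.39 and Spred2 by 1.30) and 3 fell in iSPN (Spry2 by 0.81, Spred2 by 0.77 and Spred1 by 0.65), where 20.1% of all genes rose in dSPN and 3.59% fell in iSPN. In iSPN after lesion 2 fell (Spry3 by 0.53 and Spred1 by 0.45) and none rose, while 4 of the 10 phosphatases rose in the same comparison.

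Across the 77 arrays, which share groups and processing, the genes with the pattern most like each phosphatase by Pearson's r were as follows. Dusp14 was most like Rheb (0.95), Nr4a3 and Rnd3 (both 0.94). Dusp4 was most like Rab3ip (0.93), Peli1 and Plk3 (both 0.92), and Dusp5 was most like Ier3 (0.91), Gadd45b and Ina (both 0.90). Dusp3 was nearest to Srm (0.88), Nnat (0.83) and Sik3 (0.82). Dusp6 was nearest to Spry2 (0.82), Fmnl1 and Egr1 (both 0.77), and Dusp1 to N4bp2l1 (0.78), Per1 and Spry2 (both 0.76). For Dusp7 (Scn2b, 0.64), Dusp8 (Ppp1cc, 0.60), Dusp10 (Lbh, 0.57) and Dusp16 (Hectd2, 0.55) the nearest gene was less close.

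Once each group's mean was removed, the members were only loosely tied over the 77 arrays. Dusp3 with Dusp14 (r = 0.52), Dusp3 with Dusp5 (0.47), Dusp5 with Dusp14 (0.46) and Dusp1 with Dusp6 (0.39) were the closest pairs, and Dusp4 with Dusp7 was at -0.41. Replicate 3 of the low dose in iSPN is among the lowest arrays for Dusp3, Dusp5 and Dusp14 and is included in these values. Within groups the oligodendrocyte marker mean ran at r = 0.29 with Dusp1, -0.24 with Dusp14, -0.25 with Dusp3, 0.0065 with Dusp4 and 0.0015 with Dusp5. What part glial RNA has in the differences between groups was not tested.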

How the data were processed

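Messenger RNA from TRAP of single mice was hybridised to Affymetrix mouse genome arrays. The authors deposited log2 expression values per probe set. The submitters' processing notes name RMA and affy but no version. RMA gives arrays nearly the same distribution, so a shift shared by all genes would not be seen. Scanner files were not used here, so precision is set by the number of arrays. Of 45101 probe sets, 34958 carried a single symbol, 932 several and 9211 none. For each gene the probe set of highest mean was taken, and it was kept if that mean was above the 40th percentile of probe set means (3.55). Levels were not compared between genes.

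All 77 arrays in 8 groups were fitted with limma 3.58.1 (lmFit and eBayes, R 4.3.3; 69 residual degrees of freedom), two-sided, with Benjamini-Hochberg adjustment over all 13271 genes within each of 19 comparisons, and called at an adjusted p under 0.05. Differences are of log2 means with standard errors from the fit. The script's recovery of known changes was tested on simulated data with independent noise and no run effect. That test therefore does not bear on effects of runs in the real arrays. The 7 runs are stretches of title numbers within which the animal number rises, and their meaning is unknown here. Summed marker levels are log2 of the sum of linear values. Genes outside the 10 are named as up to 3 called rises and 3 called falls of a list, and the 3 most correlated genes per member. The members and lists were chosen with earlier results of these data known. Alternatives were run as a fixed or random block, values within runs, other probe set choices, filters, normalizations and weights, a glial covariate, and each array left out in turn.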

Additional observations from a re-analysis of the deposited data

Results flagged for a closer look

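Of 50 sets examined, each 1 gene in a group of 4 to 10 arrays, 4 held an array far from the others, where chance alone gives about 1 in 20. The dSPN lesioned saline, low-dose and high-dose groups hold more than 10 arrays and were not examined. Dusp14 in low-dose replicate 3 of iSPN was at 6.89, with the nearest array at 9.11. Dusp1 in high-dose replicate 1 of iSPN was at 10.12, with the nearest at 9.33. Dusp8 and Dusp16 in high-dose replicate 6 of iSPN were at 9.45 and 4.10, with the nearest at 10.08 and 5.87.

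The change in dSPN minus that in iSPN differed from 0 by limma's interaction term for 7 of the 10 genes with the lesion, all more negative in dSPN: Dusp14 (-2.07), Dusp6 (-1.69), Dusp5 (-1.39), Dusp4 (-1.33), Dusp3 (-1.21), Dusp1 (-0.92) and Dusp7 (-0.75), where 3.21% of all genes were called in that direction. With run as a block Dusp1 (-1.09, adjusted p = 0.0606), Dusp4 (-1.57, 0.234), Dusp5 (-1.42, 0.075) and Dusp7 (-0.61, 0.399) were no longer called, and Dusp3, Dusp6 and Dusp14 were. Dusp7 was also lost with its most variable probe set (-0.69, adjusted p = 0.201). The Dusp4 difference (adjusted p = 0.0362) was lost on leaving out any of 11 arrays in turn (-1.29 to -1.17, adjusted p of 0.0501 to 0.075). These were iSPN mock replicates 1, 3 and 6, iSPN lesioned saline replicates 2, 3 and 5, dSPN mock replicates 1 and 2 and dSPN lesioned saline replicates 2, 5 and 7. For the high dose 6 genes differed, all higher in dSPN, where 10.5% of all genes were: Dusp4 (4.19), Dusp14 (3.97), Dusp6 (3.10), Dusp5 (2.89), Dusp1 (2.33) and Dusp3 (0.98). For the low dose 7 did, where 6.99% of all genes were higher in dSPN: Dusp14 (4.02), Dusp4 (3.05), Dusp6 (2.57), Dusp5 (1.87), Dusp1 (1.50), Dusp3 (0.94) and Dusp7 (0.56). Dusp7 was lost there with run as a block (0.73, adjusted p = 0.077) and with array weights (0.51, adjusted p = 0.051). It was also lost with its most variable probe set (0.27, adjusted p = 0.622) and with its probe sets averaged (0.51, adjusted p = 0.101).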

How the results depend on the processing

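No paired analysis was possible because the title numbers differ between all arrays, so no number ties arrays of different groups.

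Over the alternatives other than leaving out an array, a called difference of 1 of the 10 genes kept its sign in 1050 of 1057 recomputed values. It kept its call in 984. These values include the fits within single runs, which use only parts of the groups. With 1 array left out in turn, 2137 of 2187 kept their call and none reversed. With run as a fixed block the number of the 10 genes called was 2 for lesion against mock in dSPN (4 without the block), 2 for lesion in iSPN (4), 1 for the high dose in iSPN (4), 0 for high against low dose in dSPN (3), 1 for high dose against mock in iSPN (6), 0 for low dose against mock in iSPN (3) and 3 for the lesion interaction (7). Calls over all 13271 genes fell too, in the same order from 329 to 88, 823 to 106, 1309 to 249, 903 to 174, 2482 to 295, 1455 to 82 and 645 to 148. The cause of each loss was not tested. As a random block, run had an estimated correlation of -0.021 and ended no call of the 10 genes. Calls over all genes, in the same order, were then 390, 1003, 1606, 1314, 3109, 2012 and 784.

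Within single runs the count was 0 for the lesion in dSPN (run 1, 5 against 4 arrays; Dusp6 -1.19, Dusp3 -0.64, Dusp14 -0.92, Dusp1 -0.68), 0 for the high dose in iSPN (run 6, 8 against 2), 0 for high against low dose in dSPN (run 3, 2 against 11) and 3 for high dose against mock in dSPN (run 3, 2 against 2). Over all genes 7, 61, 7 and 286 were called in these, so counts of 0 are near the background. With the most variable probe set, or the mean of the probe sets, it was 2 for the high dose in iSPN. With the oligodendrocyte covariate it was 0 for the mock-lesioned lines (3). Fitted alone, the iSPN line lost the high-dose call of Dusp7 against saline (limma adjusted p = 0.0661). Against mock it lost Dusp1 and Dusp6 with the high dose (0.0744 and 0.0515) and Dusp14 with the low dose (0.116). Fitted alone, the dSPN line gained Dusp4 with the lesion (0.0281) and Dusp7 with the low dose and for high against low dose (0.031 and 0.0397). Over all genes, lesion calls went from 823 to 350 in iSPN and from 329 to 554 in dSPN.

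With the most variable probe set these values reversed: Dusp8 in iSPN with the high dose (-0.0092 against saline, -0.21 against mock) and dSPN minus iSPN for Dusp8 with the high dose (0.43), Dusp3 with the high and low dose (both 0.24) and Dusp7 with the low dose (-0.50). The mean of the probe sets reversed dSPN minus iSPN of Dusp3 (0.10 high, 0.16 low), and the oligodendrocyte covariate that of Dusp16 with the low dose (1.12). For these the cause was not tested. In dSPN, low-dose and lesioned saline arrays share no run, and no iSPN run holds at least 2 arrays of both mock and lesioned saline, so neither has a within-run value.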
